A study of Mus musculus with 6 samples.

Results

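The genes described here are 9 members of transforming growth factor beta (TGF-beta) signalling: the ligand genes Tgfb1, Tgfb2, Tgfb3 and Inhba, the receptor genes Tgfbr1 and Tgfbr2, the latent-ligand activator Thbs1, the target Tgfbi and the feedback inhibitor Smad7. They were chosen by symbol among the 55450 genes of the deposited tables. Each symbol had 1 row, and all 9 were among the 22056 genes that passed a filter on low counts. The tumours grew under the skin of C57BL/6 mice from MTE-Ras cells, which are cancer cells of mouse tracheal epithelium carrying oncogenic RAS. PV-10, a rose bengal solution made for injection into lesions, was given into 3 tumours, and 3 control tumours received phosphate-buffered saline (PBS). Genotype of the host beyond its strain, age, sex, dose and the time from injection to collection are not given in the sources used here. RNA came from tumours, which hold host cells along with the injected line, so fewer cells of a type and less RNA per cell cannot be told apart. The labels do not say that each tumour came from its own mouse, and p-values measure the spread between these tumours.

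TGF-beta ligands are made as latent complexes that bind to matrix proteins and must be released before they can signal. The freed dimer joins type II and type I receptor kinases, which phosphorylate SMAD proteins that enter the nucleus and change transcription. In wounds and tumours the pathway is known for inducing matrix genes and for restraining immune cells and epithelial growth.

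Total gene counts ran from 87386266 to 98717951 in PBS tumours. PV-10 tumours 1, 2 and 3 had 60082066, 36730318 and 94203331, so only PV-10 tumour 3 lay within the PBS range. Whether depth bears on the differences among PV-10 tumours was not tested. Log2 profiles of PV-10 tumours 1, 2 and 3 correlated at 0.870, 0.816 and 0.939 with the mean PBS profile, and at 0.918, 0.874 and 0.873 with the mean of the remaining PV-10 tumours (across genes, which are not replicates). PV-10 tumour 3 was thus the 1 PV-10 tumour with the higher value for PBS. The epithelial keratin genes Krt8 and Krt18 lay between 157 and 394 CPM (counts scaled to library size) in every tumour, whereas the epithelial marker Epcam did not exceed 1.31 CPM in any. CPM values are scaled by edgeR's TMM factors, and log2 changes are PV-10 minus PBS.

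Among the members, 7 had negative and 2 positive fitted changes, with a median of -0.66 against 0.30 over all genes tested. By the edgeR quasi-likelihood test 0 of 9 members passed an adjusted p of 0.05, while 5.09% of all genes did (3.17% as higher and 1.92% as lower). At an unadjusted p under 0.05 there were 5 members, where 30% of all genes were: Tgfb1, Tgfb3, Thbs1, Tgfbi and Smad7, all lower in PV-10 tumours. The same 5 members lay lower in every PV-10 tumour than in any PBS tumour and Tgfbr1 lay higher, so the groups failed to overlap for 6 of 9 members, against 38.8% of all genes (16.8% with PV-10 lower and 22% with PV-10 higher). DESeq2 passed 3 members as lower (Tgfb1, Thbs1 and Tgfbi), where it passed 26% of all genes (10.2% as lower). Limma-voom passed 2 members as lower (Thbs1 and Tgfbi), where it passed 9.51% of all genes (5.58% as lower). Without PV-10 tumour 3 the edgeR test passed 6 members, all as lower, where 41.4% of all genes passed (16.4% as lower). Without any other single tumour it passed 0 members and at most 5 genes in all. Over all genes tested the log2 change correlated at -0.26 (Spearman) with the length of the longest transcript. The median of that length was 2931 bases, and every member except Tgfb1 (2573 bases) was longer. Each library's trend by transcript length and GC content was also removed, in a form that held the TMM scale. This form was chosen after the values without it were seen. Under it 0 members passed edgeR's test, 3 had an unadjusted p under 0.05 (26.1% of all genes), and 0% of all genes passed. The median change was then -0.38 for the members and 0.23 over all genes tested. Without holding the scale, 0 members and 2 genes in all passed.

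**Figure D1:**
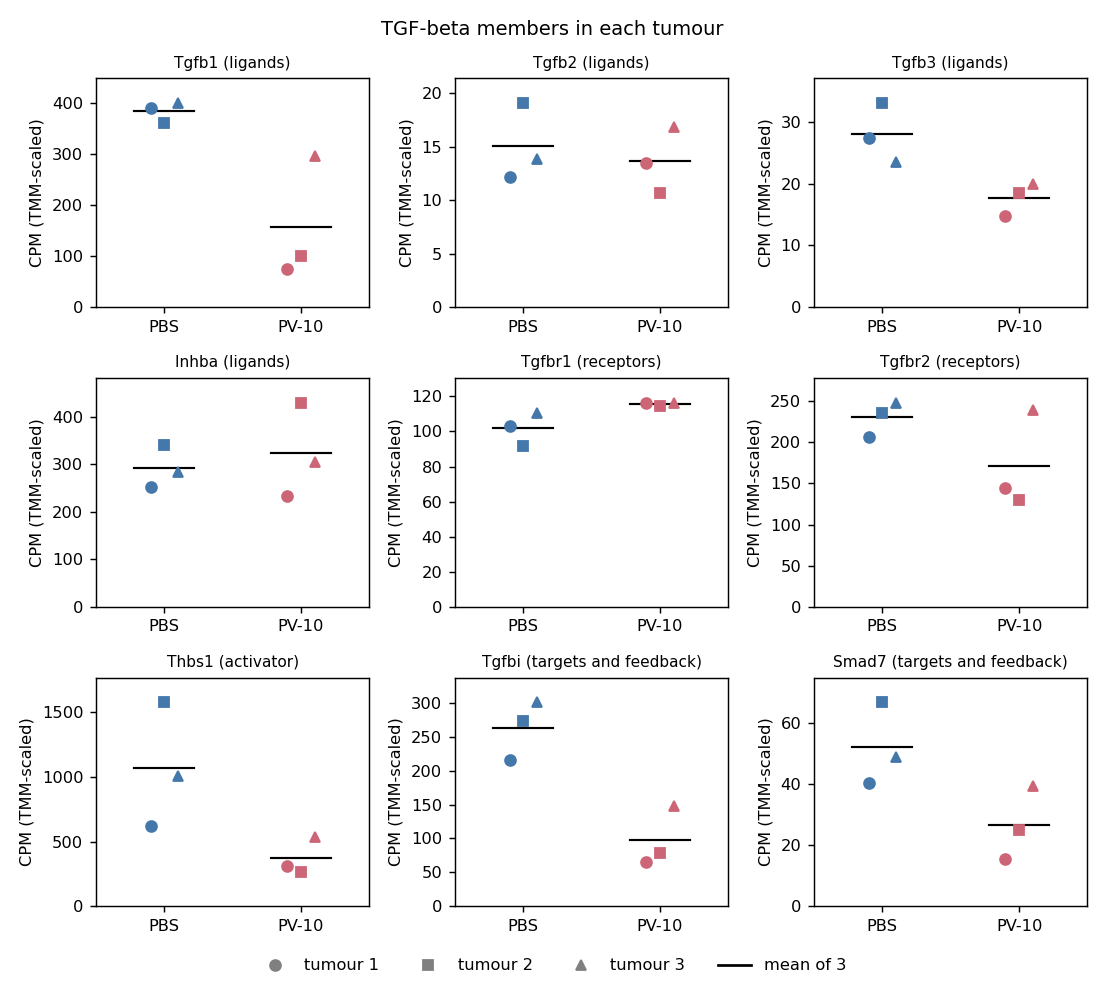
CPM (vertical axes, linear, from 0) of each member in the 3 PBS and 3 PV-10 tumours; symbols mark the tumour number and bars the mean of 3. Tgfb1, Tgfb3, Thbs1, Tgfbi and Smad7 are lower in every PV-10 tumour than in any PBS tumour, and PV-10 tumour 3 is the highest of its group for each of these 5.

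Among the ligands, Tgfb1 had the largest fitted change. Tgfb1 encodes the TGF-beta isoform best known from immune cells and tumours (ENSMUSG00000002603.15, mm10 chromosome 7, 25687002 to 25705077, plus strand). PBS tumours 1, 2 and 3 held 390.5, 361 and 400.2 CPM of Tgfb1, and PV-10 tumours 1, 2 and 3 held 74.3, 99.8 and 296 CPM. The groups did not overlap, but PV-10 tumour 3 was much closer to the lowest PBS tumour than PV-10 tumours 1 and 2 were. The means were 384 ± 20.2 and 157 ± 122 CPM (SD, n = 3 each), and the log2 change was -1.29 (SE 0.48, edgeR adjusted p = 0.108). Without PV-10 tumour 3 the log2 change was -2.14 (edgeR adjusted p = 0.000534). With each tumour left out in turn it ran from -2.14 to -0.94 (edgeR adjusted p = 0.000534 to 0.337). After trend removal it was -1.32 (edgeR adjusted p = 0.107).

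To show the sequence next to the start of a ligand gene that was lower, of a target that was lower and of a ligand gene whose groups overlapped, the 250 bases before the RefSeq start of Tgfb1, Tgfbi and Inhba are given (RefSeq, GRCm38.p6, plus strand, read 5′ to 3′). Tgfb1 lies at chr7:25686752-25687001, Tgfbi at chr13:56609336-56609585 and Inhba at chr13:16011601-16011850. The Tgfbi window runs past the start of the gene interval used here, 56609523, so its last part lies inside that interval. The windows of Tgfb1 and Inhba end right before theirs. Capitals mark GC boxes, the letters GGGCGG on either strand.
Tgfb1: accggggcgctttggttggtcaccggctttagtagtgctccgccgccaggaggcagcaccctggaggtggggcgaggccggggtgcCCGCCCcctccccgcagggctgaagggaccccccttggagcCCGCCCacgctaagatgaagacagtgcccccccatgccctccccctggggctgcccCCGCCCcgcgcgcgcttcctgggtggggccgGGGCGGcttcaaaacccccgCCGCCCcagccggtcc
Tgfbi: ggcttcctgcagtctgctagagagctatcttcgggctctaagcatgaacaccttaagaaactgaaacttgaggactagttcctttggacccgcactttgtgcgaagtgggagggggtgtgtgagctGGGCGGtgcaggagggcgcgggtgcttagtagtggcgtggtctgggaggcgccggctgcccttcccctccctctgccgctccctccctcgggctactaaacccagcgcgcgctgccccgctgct
Inhba: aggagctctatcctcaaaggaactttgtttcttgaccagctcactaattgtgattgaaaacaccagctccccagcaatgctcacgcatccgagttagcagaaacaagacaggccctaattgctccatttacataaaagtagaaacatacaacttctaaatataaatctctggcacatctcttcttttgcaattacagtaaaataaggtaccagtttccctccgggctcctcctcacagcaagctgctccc
The Tgfb1 window was 75.2% G and C and held 5 GC boxes, the Tgfbi window was 62.4% G and C and held 1, and the Inhba window was 43.2% G and C and held 0. GC boxes were present in 32.7% of 32851 RefSeq windows of the same length. The SMAD box CAGAC, searched on both strands, matched 2 times in the Tgfbi window and 0 times in those of Tgfb1 and Inhba, and occurred in 42.2% of all windows. The AP-1 site TGAGTCA matched none of the 3 windows and occurred in 4.5% of all windows. The TATA box letters TATAAA matched 1 time in the Inhba window and 0 times in the others, and occurred in 12.4% of all windows on either strand. These matches are descriptions of letters, and binding was not measured. RefSeq windows were read for 6 of the 9 members. Those of Tgfb3, Thbs1 and Smad7, which all lay lower in PV-10 tumours, were not read. Tgfb1 and Tgfbi are thus the only lower members covered among those whose groups did not overlap. Of the windows read but not printed, that of Tgfbr1, which was not lower, was 74.8% G and C with 2 GC boxes. Those of Tgfb2 and Tgfbr2 held 0 GC boxes. The SMAD box matched 2 times for Tgfb2, whose groups overlapped, as for Tgfbi. It matched 1 time for Tgfbr2 and 0 times for Tgfbr1. Whether these matches go with the changes was not tested.

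Tgfb3, an isoform studied in palate and wound healing, was scarcer (ENSMUSG00000021253.7, mm10 chromosome 12, 86056745 to 86079041, minus strand). Tgfb3 was at 27.5, 33.1 and 23.5 CPM in PBS tumours 1, 2 and 3, against 14.7, 18.6 and 19.9 CPM for PV-10 tumours 1, 2 and 3. All 3 PV-10 tumours lay below the lowest PBS tumour, and here PV-10 tumour 3 was close to the rest of its group. The log2 change was -0.66 (SE 0.26, edgeR adjusted p = 0.123), and -0.75 without PV-10 tumour 3 (edgeR adjusted p = 0.0361). With each tumour left out in turn it ran from -0.80 to -0.53 (edgeR adjusted p = 0.0361 to 0.332).

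Tgfb2, the isoform prominent in heart and eye development, showed no separation (ENSMUSG00000039239.14, mm10 chromosome 1, 186622792 to 186705989, minus strand). It was at 12.2, 19.1 and 13.9 CPM in PBS tumours 1, 2 and 3, against 13.5, 10.7 and 16.9 CPM for PV-10 tumours 1, 2 and 3. The groups overlapped throughout, and the log2 change was -0.13 (SE 0.29, edgeR adjusted p = 0.780).

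Inhba encodes the beta A subunit of activin A, a relative of the TGF-betas that signals through its own receptors to the same SMADs (ENSMUSG00000041324.14, mm10 chromosome 13, 16011851 to 16031621, plus strand). Inhba was at 252, 339.5 and 284 CPM in PBS tumours 1, 2 and 3, against 232, 429.5 and 305 CPM for PV-10 tumours 1, 2 and 3. PV-10 tumours held both the lowest and the highest value. The log2 change was 0.14 (SE 0.30, edgeR adjusted p = 0.774). On the log2(TPM + 1) scale the direction was the opposite, at -0.69 (limma adjusted p = 0.212).

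Levels of different genes were compared per length, in TPM (transcript abundance scaled by length and to a common total). Tgfb1 was at 159, 182 and 182 TPM in PBS tumours 1, 2 and 3 and at 23.0, 25.9 and 98.9 TPM in PV-10 tumours 1, 2 and 3. Its share of the summed TPM of Tgfb1, Tgfb2 and Tgfb3 was 95.3%, 92.5% and 95.3% in PBS tumours and 88.4%, 87.3% and 94.2% in PV-10 tumours. Tgfb1 thus remained the main isoform in every tumour, and the share in PV-10 tumour 3 lay within the PBS range. Group means of the share differed by -4.4 percentage points, PV-10 minus PBS (exact two-sided permutation p = 0.2, smallest possible 0.1, adjusted over 2 ratios p = 0.2). Tgfb3 made up 3.30% to 5.07% of the sum in PBS tumours and 7.26%, 8.72% and 3.59% in PV-10 tumours 1, 2 and 3. In PV-10 tumour 2 Inhba, at 30.9 TPM, was the most abundant of the 9 members, ahead of Tgfb1, while in PBS tumours it ranked 4 or 5 of the 9.

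**Figure D2:**
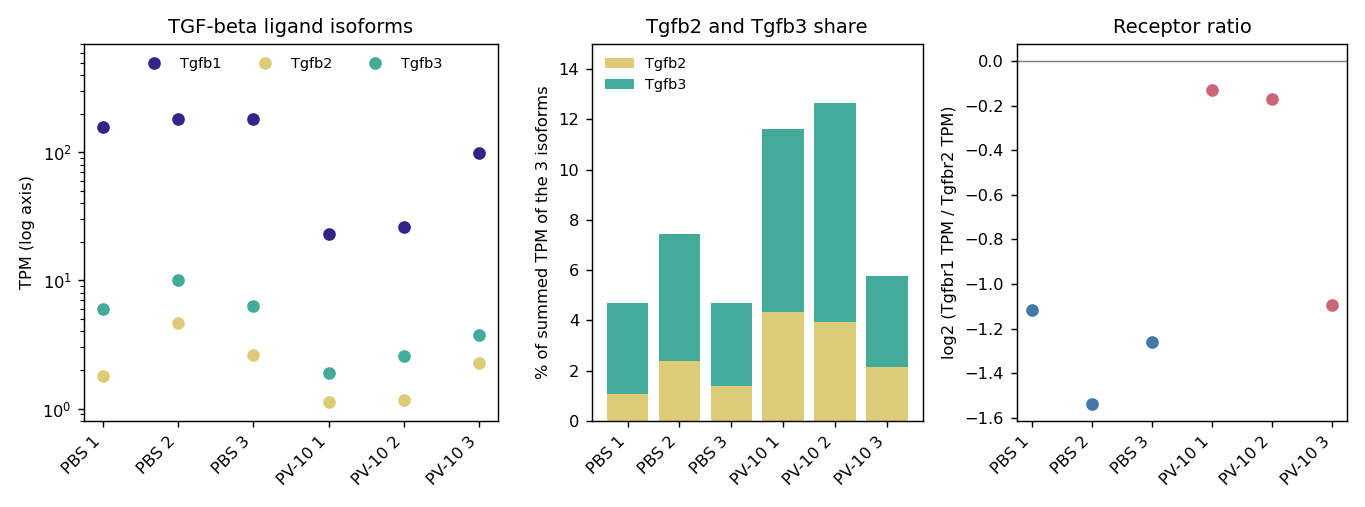
Left, TPM of the 3 TGF-beta isoforms in each tumour (log axis); middle, the percent of their summed TPM taken by Tgfb2 and Tgfb3 (stacked bars from 0, axis to 15%); right, log2 ratio of Tgfbr1 to Tgfbr2 TPM. PV-10 tumours 1 and 2 stand apart in each panel, whereas PV-10 tumour 3 lies near the PBS tumours in the middle and right panels.

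Tgfbr2 encodes the type II receptor kinase that first binds TGF-beta (ENSMUSG00000032440.13, mm10 chromosome 9, 116084293 to 116175360, minus strand). It was at 207, 236 and 248 CPM in PBS tumours 1, 2 and 3, against 145, 130.2 and 239.9 CPM for PV-10 tumours 1, 2 and 3. PV-10 tumours 1 and 2 lay below every PBS tumour, whereas tumour 3 was inside the PBS range. The log2 change was -0.42 (SE 0.30, edgeR adjusted p = 0.374). Without PV-10 tumour 3 it was -0.74 (edgeR adjusted p = 0.0118), whereas removal of the length and GC trend with the scale held gave 0.14 (edgeR adjusted p = 0.758), and without holding the scale -0.34. With each tumour left out in turn the log2 change ran from -0.74 to -0.27 (edgeR adjusted p = 0.0118 to 0.717).

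Tgfbr1 encodes the type I receptor kinase, which phosphorylates SMAD2 and SMAD3 once the type II receptor has activated it (ENSMUSG00000007613.15, mm10 chromosome 4, 47353222 to 47414931, plus strand). Tgfbr1 was at 103, 91.9 and 111 CPM in PBS tumours 1, 2 and 3, against 116.5, 114 and 116 CPM for PV-10 tumours 1, 2 and 3. All PV-10 tumours lay slightly above the PBS tumours, and the log2 change was 0.18 (SE 0.24, edgeR adjusted p = 0.635). In TPM the order was the opposite, with 13.7 to 17.9 TPM in PBS tumours and 9.08 to 13.2 TPM in PV-10 tumours. The log2 ratio of Tgfbr1 to Tgfbr2 TPM was -1.11, -1.54 and -1.26 in PBS tumours 1, 2 and 3 and -0.13, -0.17 and -1.10 in PV-10 tumours 1, 2 and 3. PV-10 tumours 1 and 2 thus held nearly as much Tgfbr1 as Tgfbr2 per length, and PV-10 tumour 3 lay at the edge of the PBS tumours. The group means differed by 0.84 on the log2 scale (exact two-sided permutation p = 0.1, the smallest that 3 against 3 can give, adjusted over 2 ratios p = 0.2). From CPM the difference was 0.57 after removal of the length trend (exact permutation p = 0.2) and 0.21 after removal of both trends (exact permutation p = 0.5).

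Thbs1 encodes thrombospondin 1, a matrix protein released by platelets and stromal cells that can free TGF-beta from its latent complex (ENSMUSG00000040152.8, mm10 chromosome 2, 118111876 to 118127133, plus strand). It was at 624, 1579 and 1005 CPM in PBS tumours 1, 2 and 3, against 316, 265 and 537 CPM for PV-10 tumours 1, 2 and 3. The groups did not overlap, although the PBS tumours themselves were widely spread and PBS tumour 1 lay close to PV-10 tumour 3. The means were 1069 ± 481 and 373 ± 145 CPM (SD, n = 3 each), and the log2 change was -1.52 (SE 0.41, edgeR adjusted p = 0.0578). Over the 11 alternatives that kept all tumours the adjusted p ran from 0.00088 to 0.134, and Thbs1 passed in 9. Without PV-10 tumour 3 the log2 change was -1.88 (edgeR adjusted p = 0.00921). With each tumour left out in turn it ran from -1.88 to -1.16 (edgeR adjusted p = 0.00921 to 0.239). With DESeq2 the log2 change was -1.43 (DESeq2 adjusted p = 0.00122). After trend removal it was -1.06 (edgeR adjusted p = 0.110).

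Tgfbi encodes a secreted matrix protein named for its induction by TGF-beta (ENSMUSG00000035493.10, mm10 chromosome 13, 56609523 to 56639562, plus strand). PBS tumours 1, 2 and 3 held 215, 274 and 301 CPM of Tgfbi, and PV-10 tumours 1, 2 and 3 held 65.3, 77.9 and 148 CPM. The groups were well apart, and the highest PV-10 tumour, tumour 3, remained below the lowest PBS tumour. The means were 263 ± 43.7 and 97.1 ± 44.6 CPM (SD, n = 3 each), and the log2 change was -1.44 (SE 0.36, edgeR adjusted p = 0.0504). This was the smallest adjusted p among the members and lay just above the threshold. Over the 11 alternatives that kept all tumours it ran from 0.000257 to 0.134, and Tgfbi passed in 9. Without PV-10 tumour 3 the log2 change was -1.88 (edgeR adjusted p = 0.000727). With each tumour left out in turn it ran from -1.88 to -1.21 (edgeR adjusted p = 0.000727 to 0.227). DESeq2 gave -1.35 (DESeq2 adjusted p = 0.000257) and limma-voom -1.51 (limma adjusted p = 0.0313). Removal of the length and GC trend gave -1.35 (edgeR adjusted p = 0.0605).

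Smad7 encodes the inhibitory SMAD that TGF-beta signalling induces and that blocks the type I receptor (ENSMUSG00000025880.11). It was at 40.4, 66.99 and 49.1 CPM in PBS tumours 1, 2 and 3, against 15.5, 25.1 and 39.6 CPM for PV-10 tumours 1, 2 and 3. The groups did not overlap, but PV-10 tumour 3 and PBS tumour 1 were nearly level. The log2 change was -0.96 (SE 0.37, edgeR adjusted p = 0.116), -1.36 without PV-10 tumour 3 (edgeR adjusted p = 0.0132) and -0.38 after trend removal (edgeR adjusted p = 0.410). With each tumour left out in turn it ran from -1.36 to -0.68 (edgeR adjusted p = 0.0132 to 0.3085).

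**Figure D3:**
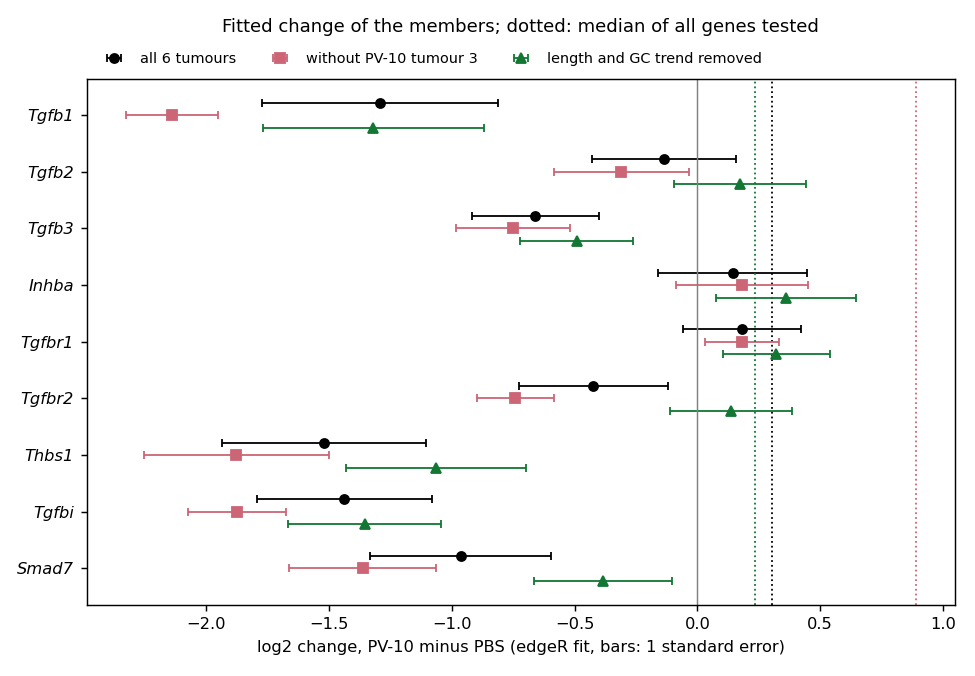
Fitted log2 change (horizontal axis, PV-10 minus PBS) of each member with 1 standard error, for all 6 tumours, without PV-10 tumour 3 and with the length and GC trend removed (scale held); dotted lines mark the median of all genes tested in each fit. Tgfb1, Thbs1 and Tgfbi lie below -1 in all 3 fits, whereas Tgfb2 and Tgfbr2 cross 0.

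The median gene differed between scales, so changes were also read against it. That median was 0.30 with TMM, 0.43 with DESeq2 size factors, 0.21 with library size alone, -0.21 on the log2(TPM + 1) scale and 0.23 or -0.30 after removal of the length and GC trend, with and without holding the scale. Relative to it, over these 6 scales, Tgfbi ran from -1.98 to -1.48, Tgfb1 from -1.91 to -1.39 and Thbs1 from -2.04 to -1.20. Smad7 ran from -1.30 to -0.56, Tgfb3 from -0.98 to -0.71, Tgfbr2 from -1.19 to -0.045 and Tgfb2 from -0.46 to -0.012. These 7 members lay below the median gene on each of the 6 scales. Inhba ran from -0.48 to 0.14 and Tgfbr1 from -0.37 to 0.09, so their side of the median depended on the scale. The low-count filter, which is not among the 6 scales, moved the median gene further. It was 0.063 at a mean count of at least 50 and 1.63 with no filter. At a mean count of at least 50 Tgfbi, Tgfb1 and Thbs1 had log2 changes of -1.31, -1.19 and -1.38. Inhba and Tgfbr1, at 0.32 and 0.35, then lay above the median gene.

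Across the 6 tumours the log2 CPM of Tgfb1 correlated at 0.96 with that of Tgfbi, 0.93 with Tgfbr2, 0.92 with Smad7, 0.835 with Tgfb3, 0.833 with Thbs1, 0.468 with Tgfb2, -0.09 with Inhba and -0.568 with Tgfbr1. These values describe 6 libraries that also differ in depth and treatment, and they carry no test. The genes most like Tgfb1 among 9357 candidates were Arhgdia, Ergic1 and Mark2 (r of 0.9995 for each). Those most like Tgfbi were Stra6, Atp9b and Csnk1g1 (0.999 to 1.000), and those most like Smad7 were Rell1, Foxo1 and Kbtbd2 (0.996 to 0.998). Thbs1 was most like Lrrc32, which encodes the cell-surface anchor of latent TGF-beta known as GARP (r of 0.994), then Mxd1 (0.994) and Mdm4 (0.989). Tgfbr2 was most like Eml3, Sh2d3c and Rhbdd2 (0.998 to 0.999), Tgfbr1 like Rbmxl1, Spata6 and Ddias (0.972 to 0.996) and Tgfb3 like Abca1, Magi3 and Ift172 (0.978 to 0.984). Tgfb2 was most like Fech, Fbxl2 and Snrnp48 (0.975 to 0.988), and Inhba like Mfsd11, Ccdc43 and Mmp12 (0.949 to 0.994).

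In the rest of the pathway 78 of 80 listed genes were tested, of which 1 passed as higher and 2 as lower, where 3.17% and 1.92% of all genes did. There were 24 at an unadjusted p under 0.05, where 30% of all genes were. The listed genes had 58 negative and 20 positive changes and a median of -0.47, against 0.30 over all genes tested. The lists were written with earlier results of these data known, so these counts describe the lists and are no independent test. Without PV-10 tumour 3, 4 passed as higher and 36 as lower of 80 tested, where 25% and 16.4% of all genes did. Leaving out any 1 of the other 5 tumours gave 0 passing. After trend removal 0 listed genes and 0% of all genes passed edgeR's test, and 25 listed genes and 26.1% of all genes had an unadjusted p under 0.05.

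Latency and activation genes hold the ligand in the matrix and release it, and 0 of 14 passed edgeR's test, where 5.09% of all genes did, with a median change of -0.69. At an unadjusted p under 0.05 there were 8 of 14, where 30% of all genes were. Ltbp3, which binds latent TGF-beta, was at 659, 612 and 496.5 CPM in PBS tumours 1, 2 and 3, against 74.5, 161 and 313 CPM for PV-10 tumours 1, 2 and 3. Its groups did not overlap. The log2 change was -1.69 (SE 0.47, edgeR adjusted p = 0.0591), and -0.87 after trend removal. The matrix proteoglycan gene Bgn overlapped between groups (log2 change -0.57, edgeR adjusted p = 0.298). Ltbp4 and Furin, the latter encoding the protease that cleaves the TGF-beta precursor, were chosen after their values were seen, with log2 changes of -1.78 and -1.43 (edgeR adjusted p = 0.0659 and 0.0816). The list held 11 negative and 3 positive changes. Dcn, also named with its values seen, went up, with a log2 change of 1.26 (edgeR adjusted p = 0.119). Without PV-10 tumour 3 the Dcn change was 1.58 (edgeR adjusted p = 0.0252).

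Other receptors and co-receptors gave 0 of 11 passing edgeR's test (5.09% of all genes) and a median of -0.46. At an unadjusted p under 0.05 there were 4 of 11, near the 30% of all genes. Bmpr2, the type II receptor for bone morphogenetic proteins (BMPs), was at 549.5, 669.5 and 561 CPM in PBS tumours 1, 2 and 3, against 150.3, 178 and 353 CPM for PV-10 tumours 1, 2 and 3. Its groups did not overlap, and the log2 change was -1.39 (SE 0.36, edgeR adjusted p = 0.0536). Bmpr1a, a type I BMP receptor, overlapped between groups (log2 change -0.40, edgeR adjusted p = 0.425). Tgfbr3, the co-receptor betaglycan, was chosen after its values were seen and had a log2 change of -1.48 (edgeR adjusted p = 0.0509).

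SMAD transducers gave 0 of 6 passing edgeR's test (5.09% of all genes) and 1 at an unadjusted p under 0.05 (30% of all genes), with a median of -0.51. Smad3, which carries the TGF-beta signal to the nucleus, was at 155, 152 and 152 CPM in PBS tumours 1, 2 and 3, against 25.1, 45.1 and 99.8 CPM for PV-10 tumours 1, 2 and 3. The PBS tumours were nearly level and every PV-10 tumour lay below them, and the log2 change was -1.43 (SE 0.45, edgeR adjusted p = 0.0737). Smad4, the common partner SMAD, had a log2 change of -0.41 (edgeR adjusted p = 0.403), with PV-10 tumour 3 above every PBS tumour.

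Of 9 intracellular inhibitors and co-repressors, 1 passed as higher and 0 as lower (3.17% and 1.92% of all genes), with a median of -0.63. The gene that rose was Bambi, which encodes a pseudoreceptor that dampens TGF-beta signalling. Bambi was at 2.22, 2.22 and 3.30 CPM in PBS tumours 1, 2 and 3, against 8.66, 7.04 and 6.81 CPM for PV-10 tumours 1, 2 and 3. All PV-10 tumours, tumour 3 included, were well above the PBS tumours, and the log2 change was 1.54 (SE 0.35, edgeR adjusted p = 0.0451). After trend removal the log2 change was 1.73 and no longer passed (edgeR adjusted p = 0.0601). In this list only Bambi and Smad6, at under 1 CPM on average in both groups, had positive changes.

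Activin and BMP ligands and antagonists gave 0 of 14 tested genes passing edgeR's test (5.09% of all genes) and 2 at an unadjusted p under 0.05 (30% of all genes), with a median of -0.35. Grem1, a BMP antagonist, was at 971, 781 and 621 CPM in PBS tumours 1, 2 and 3, against 266, 347 and 705 CPM for PV-10 tumours 1, 2 and 3. PV-10 tumour 3 was inside the PBS range. The log2 change was -0.85 (SE 0.39, edgeR adjusted p = 0.181). Fstl1, a secreted follistatin-like protein gene, had a log2 change of -0.22 (edgeR adjusted p = 0.582).

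Among 24 wound and TGF-beta target genes 0 passed as higher and 2 as lower (3.17% and 1.92% of all genes), with a median of -0.41. Those that fell were Tnc, the wound matrix protein tenascin C (log2 change -1.63, edgeR adjusted p = 0.0446), and Itga5, a fibronectin receptor subunit (-1.56, edgeR adjusted p = 0.0462). Tnc was at 760, 1152 and 1903 CPM in PBS tumours 1, 2 and 3, against 437, 375 and 418 CPM for PV-10 tumours 1, 2 and 3. Itga5 was at 364, 377 and 304 CPM in PBS tumours 1, 2 and 3, against 73.2, 101 and 180.2 CPM for PV-10 tumours 1, 2 and 3. Neither gene overlapped between groups. After trend removal neither passed (-0.87 and -0.92, edgeR adjusted p = 0.184 and 0.0722). Fn1 and Tagln, chosen after their values were seen, went opposite ways without passing the test. Fn1, fibronectin, was at 4235, 12348 and 6794 CPM in PBS tumours 1, 2 and 3, against 1084, 1585 and 3152 CPM for PV-10 tumours 1, 2 and 3 (log2 change -2.01, edgeR adjusted p = 0.0505). Tagln, the smooth muscle and myofibroblast protein transgelin, was at 9.74, 16.3 and 13.0 CPM in PBS tumours 1, 2 and 3, against 105, 46.5 and 20.2 CPM for PV-10 tumours 1, 2 and 3 (log2 change 2.14, edgeR adjusted p = 0.0505). Ccn2, the textbook TGF-beta target connective tissue growth factor, also chosen after its values were seen, overlapped between groups (log2 change 0.19, edgeR adjusted p = 0.677).

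**Figure D4:**
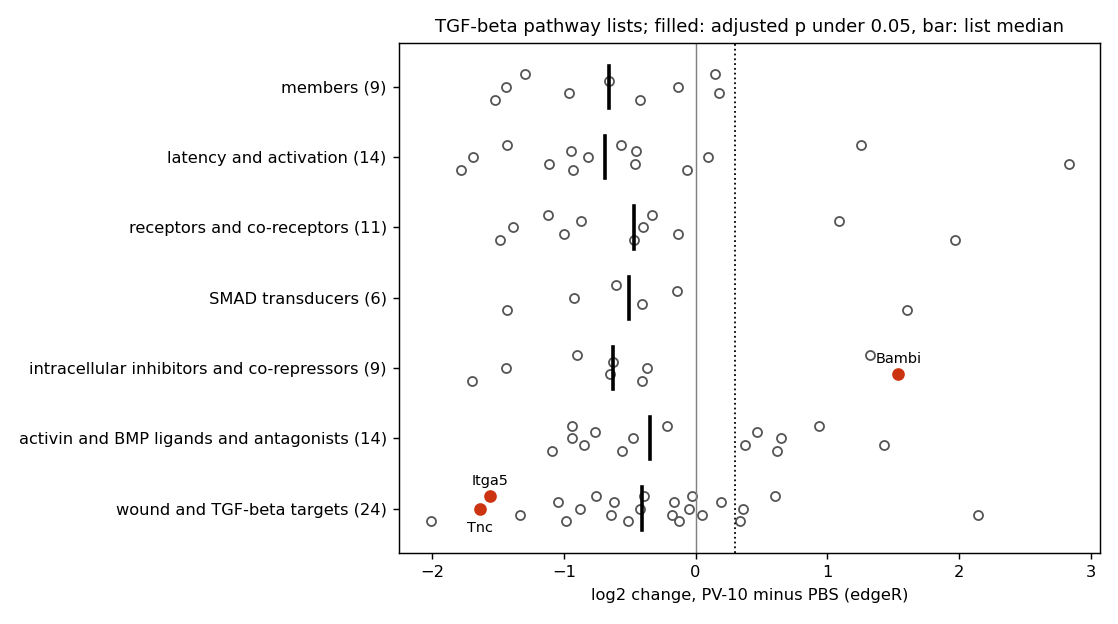
Fitted log2 change (horizontal axis, PV-10 minus PBS) of every tested gene in the members and in 6 pathway lists, with the number tested in brackets; filled points passed an adjusted p of 0.05, bars mark list medians and the dotted line the median of all genes tested. The medians of all 7 rows are negative, from -0.69 to -0.35, and Bambi is the only filled point above 0.

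Markers of cells that make or store these ligands were read in the same tumours. Summed endothelial marker levels (7 genes) were 41.2 to 129.9 TPM in PBS tumours and 22.5, 16.1 and 73.5 TPM in PV-10 tumours 1, 2 and 3. In CPM 5 of the endothelial genes had negative and 2 positive log2 changes (Tek 0.20 and Emcn 0.24), with a median of -0.745. Only Kdr did not overlap between groups in CPM. Summed epithelial markers (9 genes) were 349.8 to 425 TPM in PBS tumours against 154.5 to 299 TPM after PV-10, nearly all of it from Krt8, Krt18 and Krt19. On the CPM scale 7 of these 9 genes had positive and 2 negative log2 changes, with a median of 0.89 against 0.30 over all genes tested. A sum and a count of signs are unlike measures, so the 2 readings do not compare the scales alone. Krt8, Krt18 and Krt19 had log2 changes of -0.71, 0.05 and 0.09. The other positive genes, Krt5, Krt14, Epcam, Trp63 and Krt17, did not exceed 5.23 CPM in any tumour. Summed macrophage markers (8 genes) were 638 to 860 TPM in PBS and 504 to 706 TPM in PV-10 tumours. Of this, Lyz2 made up 254 to 353 and 355 to 414.5 TPM. Lyz2 was the 1 macrophage gene with a positive log2 change (1.11), and 7 were negative. Fibroblast and pericyte markers (9 genes) summed to 250.4 to 679 and 205 to 336 TPM, with Col1a1 at 182 to 462 and 98.4 to 201 TPM. Their log2 changes were split, 4 positive (Dcn 1.26, Lum 1.29, Rgs5 1.44 and Fap 1.32) and 5 negative (Pdgfrb the lowest, -1.45). Platelet markers (8 genes) summed to 116 to 203 TPM in PBS and 130.4 to 162 TPM in PV-10 tumours, nearly all of it Pf4, which macrophages can also express. For the other 7 platelet genes the highest level in any tumour ran from 0.164 CPM (Treml1) to 4.09 CPM (Itga2b). T cell and neutrophil markers (8 and 7 genes) were low in both groups, at 9.73 to 12.9 against 3.38 to 18.1 TPM and at 5.11 to 7.03 against 5.13 to 15.3 TPM, with the highest level in PV-10 tumour 3. Skeletal muscle markers (6 genes) summed to 2.48 to 16.0 TPM in PBS tumours and to 19.6, 108 and 2.89 TPM in PV-10 tumours 1, 2 and 3, and adipocyte markers (5 genes) to 4.59 to 6.88 and 5.36 to 7.85 TPM. No single gene of these 9 marker lists passed edgeR's test, and the part of these cells in the lower Tgfb1, Thbs1 and Tgfbi was not tested.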

How the data were processed

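RNA of 3 PBS and 3 PV-10 tumours was analysed from 2 deposited tables. Per the labels' protocols the libraries were strand-specific and the authors took off adapters (BBMerge 37.02, cutadapt 1.8.1), mapped reads with STAR 2.7.7a on mm10, and used RSEM 1.3.0 with Gencode vM21 for gene values. The deposited counts are whole numbers that are not normalized; how RSEM estimates became whole is not given in the sources used here. The deposited TPM values are scaled by length and to a common total. RSEM shares reads among similar genes.

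The main test was edgeR 4.0.16 (R 4.3.3) on the counts: default expression filter, TMM scaling, robust quasi-likelihood fit and Benjamini-Hochberg adjustment over 22056 genes, called at an adjusted p under 0.05. Each SE is the size of the log2 change divided by the root of F. The common biological coefficient of variation was 0.777. A floor of 3 counts equals 0.029 to 0.0822 CPM and covers counting error only. The 2 TPM ratios were compared by exact permutation.

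Alternatives were DESeq2 1.42.0 as test or for size factors, scaling by library size, other low-count filters, limma-voom and limma on log2 TPM (limma 3.58.1, pseudocounts 1 and 0.1), a replicate block, each tumour left out, and trend removal by length and GC (longest Gencode transcript, splines with 5 degrees of freedom on log2 CPM with a prior count of 2). Trend removal was first run without centring, which also moved each library's mean. The centred form, which holds the TMM scale and is the one quoted unless stated, was added after those values were seen, as was the use of GC for the ratios. The test was tried on simulated counts. Members, lists and the naming rule were chosen with earlier results of these data known. The rule names all members, called genes of each list or else the 2 of highest mean TPM, and for each member the 3 best correlated genes whose mean log2 CPM was 3 or more.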

Additional observations from a re-analysis of the deposited data

How the results depend on the processing

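The count of members passing moved with the test. With all 6 tumours it was 0 in the main edgeR fit, 3 with DESeq2, 2 with its size factors and 2 with library size alone. It was 4 with no filter, 2 at a mean count of at least 50, 2 with limma-voom and 3 with either TPM pseudocount. Every member that passed was lower. In the same order the rest of the pathway gave 3, 23, 11, 15, 27, 11, 14, 27 and 27 genes, and 0 after either trend removal. All genes gave 1122, 5720, 2537, 2441, 4664, 2705, 2097, 2917 and 3175, then 2 after trend removal without centring (5570 at an unadjusted p under 0.05) and 0 with centring (5747 at an unadjusted p under 0.05). Centring was chosen after the uncentred values were seen. Higher and lower calls were 699 and 423 with TMM, 980 and 1461 with library size alone, 2037 and 2627 with no filter, 866 and 1231 with limma-voom, and 162 and 2755 on the log2(TPM + 1) scale. Leaving out 1 tumour gave 0 to 6 members, 0 to 40 pathway genes and 1 to 11399 genes in all, the highest each time without PV-10 tumour 3 and at most 5 genes in all without any other.

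The replicate numbers were not treated as pairs: same-numbered tumours' deviations correlated at -0.049, 0.071 and 0.072. A replicate block gave 3 members, 18 pathway genes and 2872 genes in all.

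The direction turned for Tgfb2 at a mean count of at least 50 (0.017), with the centred trend removed (0.17) and without PBS tumour 2 (0.042), in a range of -0.31 to 0.042 with a tumour left out. It turned for Tgfbr2 with the centred trend removed (0.14, against -0.34 without centring), for Inhba on TPM (-0.69 and -0.71 by pseudocount), after uncentred trend removal (-0.16) and without PV-10 tumour 2 (-0.13, in a range of -0.13 to 0.34 with a tumour left out), and for Tgfbr1 on TPM (-0.59 and -0.63) and after uncentred trend removal (-0.20). None of these passed. The difference in Tgfb1 share was -10.3 percentage points in CPM, -13.2 after length trend removal and -12.7 with GC added, and -6.52 to -3.07 with a tumour left out. The receptor ratio differed by 0.21 after length and GC trend removal, an addition made later, and by 0.67 to 1.16 with a tumour left out. The cause of these shifts was not tested. With 3 tumours a group, the exact tests of the ratios could not pass the threshold.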
